A study of Mus musculus with 6 samples.

Results

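Molecular chaperones of the cytosol and mitochondria, with their cochaperones and the heat shock factors that drive their transcription, were followed in the brains of mice given PAMAM dendrimers by the nose. The set holds 40 genes: Hsp70, Hsp110, Hsp90, Hsp60 and J-domain genes, cochaperones, 4 subunits of the TRiC chaperonin and the factors Hsf1 and Hsf2. Chaperones of the endoplasmic reticulum and small heat shock proteins were left out. A gene was found by the gene name that the array files give each probe, and where several probes carried the name the one with the highest mean log2 signal over the arrays stood for the gene. By name 39 of the 40 were among the 34788 gene names on the array, and 38 were well above background on every array, as were 20979 gene names in all. Hspa1b had no probe of its own name, but the single Hspa1a probe also lists the Hspa1b transcript among its accessions, so it read both. The probe of Hspa1l, the testis-type Hsp70, was well above background on only 1 of 6 arrays, so its log2 levels of -5.88 to -4.67 are not read further.

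The mice were male BALB/c, aged 8 weeks, and received either saline or PAMAM dendrimers, branched polymer nanoparticles, once by the nose at 0 or 0.15 mg/kg. The olfactory bulb, hippocampus and cerebral cortex were collected 24 h later. Each of the 6 combinations of region and treatment was measured on 1 Agilent 1-colour array with RNA pooled from 6 independent experiments, so the PAMAM and saline values of a region have no replicate and their difference no test. Whether 1 mouse gave all 3 tissues is not stated in the labels.

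Hsp70 proteins bind exposed hydrophobic stretches of unfolded proteins in cycles of ATP hydrolysis, which J-domain proteins start and Hsp110 proteins, as nucleotide exchange factors, complete. Hsp90 takes over partly folded clients such as kinases and steroid receptors with the help of cochaperones, while Hsp60 with its lid and the TRiC ring enclose proteins to fold them. When unfolded proteins build up, heat shock factor Hsf1 is released from chaperones and binds heat shock elements in the promoters of many of these genes. In the brain, neurons hold high constitutive levels of Hsc70 and Hsp90, and Hsc70 with J-domain partners also works at synaptic vesicles and clathrin coats.

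Each region carried its own markers. Between 57.6% and 65.9% of the 59305 non-control spots were well above background per array, and 0 were saturated. All 10 measured bulb markers, 9 of 9 hippocampal and 9 of 9 cortical markers were higher in the region they mark than the mean of the other regions. Values are log2 of the processed signal after subtracting each array's 75th percentile, and a difference is PAMAM minus saline on this log2 scale. Repeated spots of one probe on an array set a 95% limit for spot noise of 0.163 in bulb tissue and 0.168 in the others. The limit was taken only from probes brighter than the median probe well above background, and covers neither animals nor labelling. Hspa1a, Dnajb4 and Dnajc6 are dimmer than the median measured gene, and spot noise at such brightness was not estimated. The number of arrays limits the precision of every value.

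In all 3 regions most chaperone genes were slightly higher with PAMAM. Of the 38 genes, 29 were higher with PAMAM in olfactory bulb, 32 in hippocampal and 30 in cortical RNA, where 47.2%, 51.2% and 53.5% of all measured genes were higher. Their median difference was 0.07 (bulb), 0.13 (hippocampus) and 0.12 (cortex), against -0.01, 0.00 and 0.02 over all genes. In the cortex this median is 0.07 under quantile normalization and 0.06 under cyclic loess. The number of genes higher there is 26 under either, where 51.8% and 52.5% of all genes were. Chaperone genes are mostly bright on the array, and in the cortex 65.2% of the brighter measured genes were higher with PAMAM, with a median of 0.05, beside 29 of the 35 chaperone genes among them with a median of 0.13. In 21 of 38 genes the difference was above 0 in every region, against 15.3% of all genes. In 0 of 38 it was below 0 in every region, against 14.2%. The set was chosen with earlier results of these data known, so the shares of all genes describe and do not test it.

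**Figure D1:**
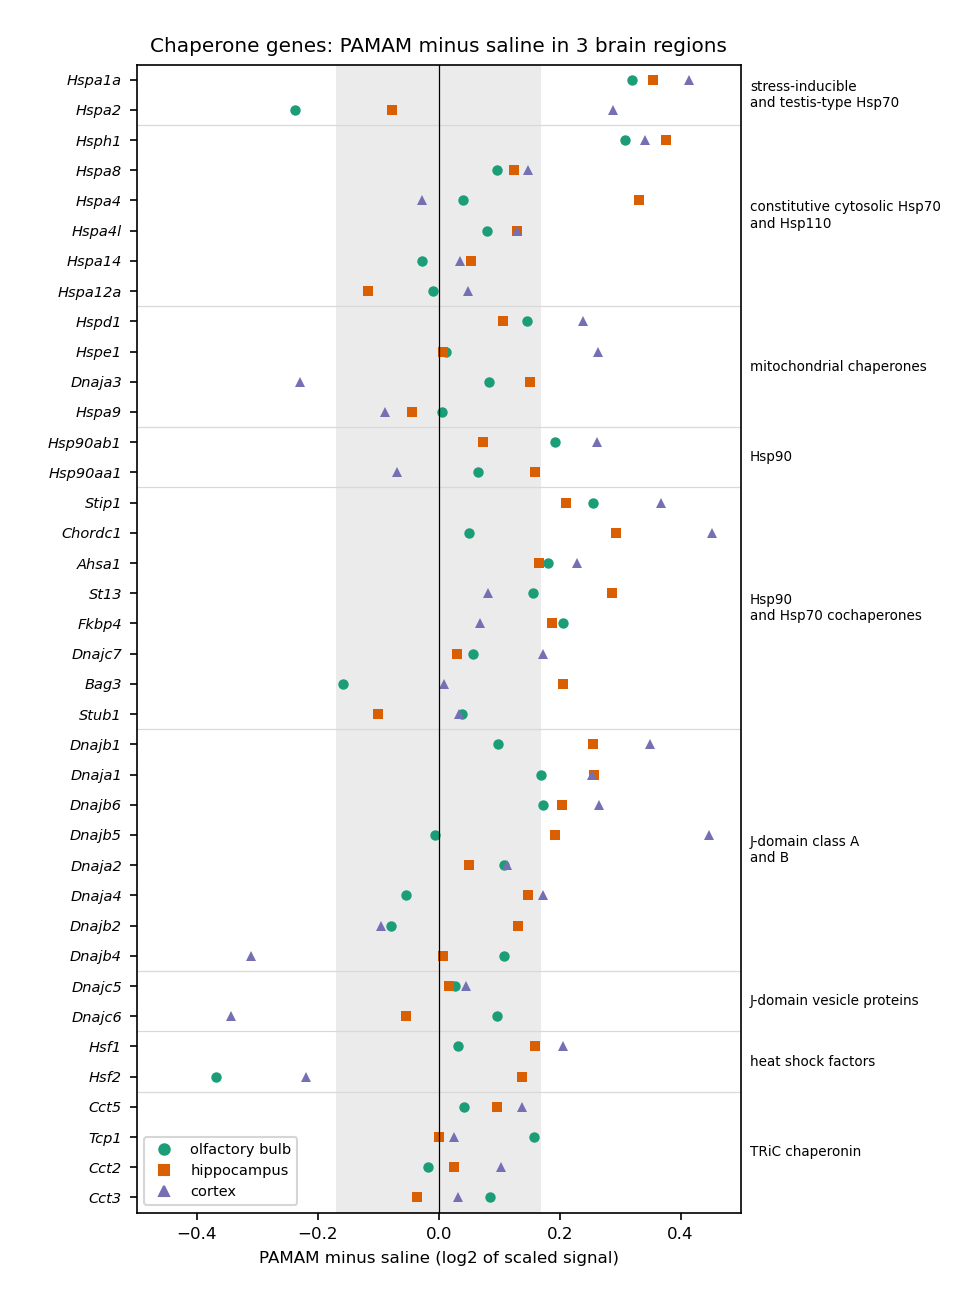
PAMAM minus saline (x axis, log2 of scaled signal) for the 38 chaperone genes measured on all 6 arrays, grouped by role, with 1 point per region and a grey band for the 95% limit of spot noise of 0.168. Hspa1a, Hsph1 and Stip1 lie right of the band in all 3 regions, while every point of the TRiC subunits lies inside it.

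The differences were small. No chaperone gene reached 2-fold in either direction in any region. A difference of at least 0.322 in size was set as a mark. In the olfactory bulb 0 of 38 genes were higher by that much, where 3.84% of all genes were, and 1 was lower by it (Hsf2; 5.79% of all genes). Hspa1a, at 0.319, and Hsph1, at 0.309, lay just inside it there. The hippocampus held 3 past the mark upward (Hspa1a, Hsph1 and Hspa4; 7.47% of all genes) and 0 lower (4.44%). In the cortex 6 were past it upward (Hspa1a, Hsph1, Stip1, Chordc1, Dnajb1 and Dnajb5; 7.15% of all genes) and 1 lower (Dnajc6; 10.1%). Many differences were thus small and above 0, and few were large. In the hippocampus the 3 of 38 past the mark upward lie close to the share over all genes. In the cortex only 4 of 38 were past it upward under quantile normalization and also under cyclic loess. There 8.65% and 8.99% of all genes were, so the cortical count too depends on the scaling. Among brighter genes 0, 2 and 5 of 35 chaperone genes were past it upward in bulb, hippocampus and cortex. The shares of all 10489 brighter genes were 0.83%, 1.8% and 4.4%. Downward there were 1, 0 and 0 chaperone genes, beside 88, 81 and 305 of the 10489. These differences in share were not tested. Above the spot noise limit were 8 genes in bulb, 12 in hippocampal and 16 in cortical RNA, where 12.3%, 17.3% and 20.4% of all genes were. Below minus that limit were 2, 0 and 4 genes, where 16.2%, 13.5% and 21.6% of all genes were. On the chosen probes 5 genes were above the limit in all 3 regions (Hspa1a, Hsph1, Stip1, Dnaja1 and Dnajb6), as were 1.13% of all genes. Of these 5, Hspa1a is dimmer than the median measured gene, while the limit comes from brighter probes. Dnaja1 passed narrowly in the bulb, at 0.168, and read 0.162 there under quantile normalization, inside the limit. In the cortex it read 0.161 under quantile normalization and 0.163 under cyclic loess, also inside. Its other probe gave 0.09, 0.16 and 0.42 in bulb, hippocampus and cortex, inside the limit in the bulb and hippocampus.

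**Figure D2:**
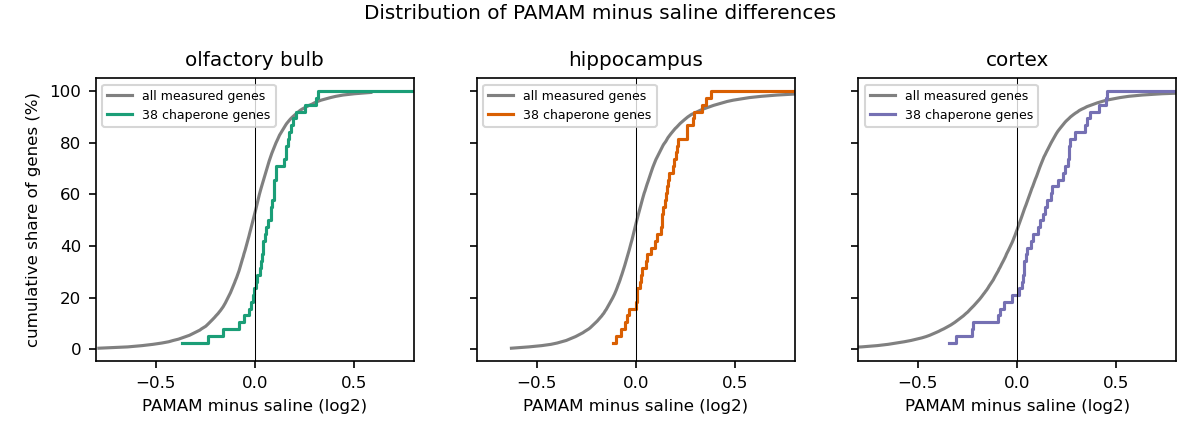
Cumulative share of genes (y axis, percent) by PAMAM minus saline (x axis, log2) in each region, for all measured genes (grey, drawn between the percentiles 0.5 and 99.5) and for the 38 chaperone genes (coloured steps). The coloured steps lie right of the grey curve through the middle of each panel, with medians of 0.07, 0.13 and 0.12, and meet it again at the highest differences.

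Across the regions no single gene passed the test for PAMAM. A limma fit with region and treatment as terms, in which the spread is how far the 3 regions depart from a common difference, called 0 of 20979 genes higher and 0 lower at an adjusted p under 0.05, a share of 0% in both directions. The lowest adjusted p was 0.327 over all genes and 0.605 among chaperone genes. At an unadjusted p under 0.05 there were 1492 genes, which is 7.11%, and 8 of the 38 chaperone genes, all higher with PAMAM (Hspa1a, Hsph1, Stip1, Dnaja1, Dnajb6, Dnajb1, Ahsa1 and Chordc1). With 3 pairs an exact permutation test of a single gene cannot go below 0.25. Regions may share mice, so these p-values measure only the spread between regions.

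Hspa1a encodes the classical stress-inducible Hsp70, which cells make in quantity after heat or proteotoxic damage. Its log2 level was -1.80 with saline and -1.48 with PAMAM in bulb, -0.81 and -0.45 in hippocampal and -1.29 and -0.88 in cortical RNA. In every region the PAMAM array was the higher, and the regions stood apart by more than the treatments did. The differences of 0.32, 0.35 and 0.41 gave a mean of 0.36 ± 0.05 (SD over 3 regions), or 1.29-fold, the highest of the set. Its limma adjusted p for PAMAM was 0.605. By mean difference 1.34% of the 20979 measured genes were higher. The 60-base probe lies at chr17:35107117-35107176 on the minus strand of mm9 and is printed because it is the only measure of the inducible Hsp70 pair, Hspa1a and Hspa1b:
Hspa1a probe: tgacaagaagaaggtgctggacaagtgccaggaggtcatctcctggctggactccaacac
Hspa2, the testis-enriched Hsp70 that is also found in brain, did not follow. It read 2.66 and 2.42 (saline and PAMAM) in bulb, 3.03 and 2.95 in hippocampal and 2.07 and 2.36 in cortical RNA. PAMAM was the lower array in the bulb and hippocampus and the higher in the cortex.

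Among the constitutive Hsp70 and Hsp110 genes, 4 of 6 were higher with PAMAM in the bulb and 5 of 6 in either other region. Hsph1, an Hsp110 that exchanges the nucleotide of Hsp70 and is itself induced by heat, stood out. It read 3.87 and 4.17 in bulb, 4.68 and 5.05 in hippocampal and 4.80 and 5.14 in cortical RNA (saline and PAMAM). The differences of 0.31, 0.38 and 0.34 averaged 0.34 ± 0.03 (SD over 3 regions), or 1.27-fold, with an adjusted p of 0.605. Hspa8, the constitutive Hsc70, read 7.77 and 7.86 in bulb, 7.93 and 8.06 in hippocampal and 8.01 and 8.16 in cortical RNA. Its 3 differences of 0.10, 0.12 and 0.15 all lie within the spot noise limit. In the cortex the Hspa8 difference goes to 0.00 under cyclic loess, and its other probes gave -0.04 and 0.26 there. Those probes read 0.21 and 0.29 in the bulb and 0.12 and 0.18 in the hippocampus, so the size of the Hspa8 difference depends on the probe. Hspa12a, a distant Hsp70 relative, differed between treatments by -0.01, -0.12 and 0.05. The other 3 genes of the group, Hspa4, Hspa4l and Hspa14, ranged from -0.03 to 0.33, the highest being Hspa4 in the hippocampus, for which the other probes gave 0.07 and 0.77.

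**Figure D3:**
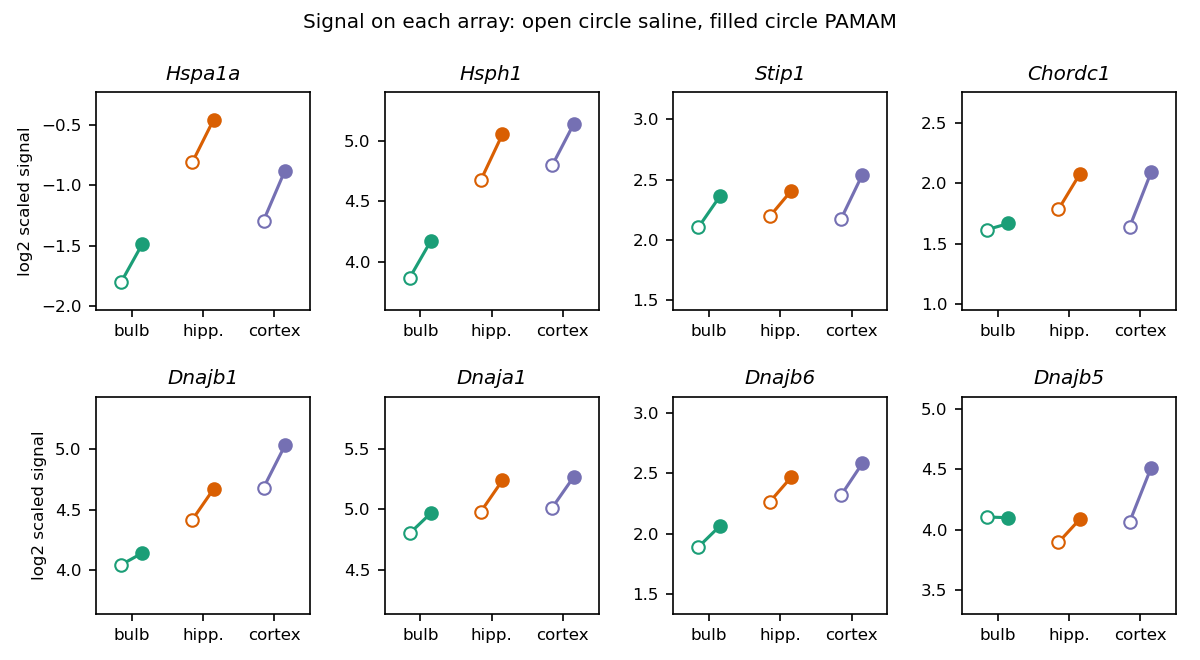
Log2 scaled signal (y axis) on each array for the 8 chaperone genes with the highest mean difference, with saline as open and PAMAM as filled circles, joined within a region. All panels span the same number of log2 units, and the PAMAM circle is the higher in each region for every gene but Dnajb5, whose bulb arrays read 4.10 and 4.10.

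Of the Hsp90 pair, the constitutive Hsp90ab1 read 6.55 and 6.74 in bulb, 7.25 and 7.33 in hippocampal and 7.17 and 7.43 in cortical RNA. Hsp90aa1, the more inducible form, read 6.03 and 6.09, 6.11 and 6.27, and 6.26 and 6.20 in the same order. Hsp90ab1 was thus higher with PAMAM in all 3 regions, by 0.19, 0.07 and 0.26, the last of which is 0.13 under cyclic loess. Hsp90aa1 was higher in the bulb and hippocampus only, with -0.07 in the cortex, which becomes -0.18 under both quantile normalization and cyclic loess.

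The cochaperones of Hsp90 and Hsp70 were the role group with the most genes higher in every region, 6 of 8. Stip1, the adaptor that hands clients from Hsp70 to Hsp90, read 2.11 and 2.36 in bulb, 2.20 and 2.41 in hippocampal and 2.17 and 2.54 in cortical RNA. The saline arrays of the 3 regions were almost level and all lay below the 3 PAMAM arrays. Its mean difference was 0.28 ± 0.08 (SD over 3 regions), with an adjusted p of 0.623. Chordc1, a zinc-binding Hsp90 partner, read 1.62 and 1.67, 1.78 and 2.08, and 1.64 and 2.09 in the bulb, hippocampus and cortex. Its difference of 0.45 in the cortex was the highest of any chaperone gene in a single region, while 0.05 in the bulb lies within spot noise. Ahsa1, which stimulates the ATPase of Hsp90, was higher by 0.18, 0.17 and 0.23. Dnajc7, a J-domain protein that also binds Hsp90, was higher by 0.06, 0.03 and 0.17. The Hsp70 partner St13 and the immunophilin Fkbp4 were higher in every region too, by 0.07 to 0.29. Bag3, which links Hsp70 to autophagy, and the ubiquitin ligase Stub1 differed in sign between regions, from -0.16 to 0.21.

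Class A and B J-domain proteins choose substrates for Hsp70, and all 8 measured were higher in the hippocampus, 6 in the cortex and 5 in the bulb. Dnajb1, the main stress-inducible member, read 4.04 and 4.14 in bulb, 4.42 and 4.67 in hippocampal and 4.68 and 5.03 in cortical RNA. Dnaja1, a farnesylated partner of Hsc70, read 4.80 and 4.97, 4.98 and 5.24, and 5.01 and 5.27. Dnajb6, which keeps polyglutamine proteins from aggregating, read 1.89 and 2.06, 2.26 and 2.47, and 2.32 and 2.58. All 3 genes were higher with PAMAM in every region, and their means were 0.23 ± 0.13, 0.23 ± 0.05 and 0.21 ± 0.05 (SD over 3 regions). In the cortex the 3 other probes of Dnajb6 gave 0.25, -0.01 and -0.28 against 0.27 for the chosen one. The same probes gave 0.26, 0.01 and 0.07 in the bulb, against 0.17. In the hippocampus they gave 0.17, 0.02 and 0.08, against 0.20. The size of the Dnajb6 difference thus depends on the probe in every region, and its sign in the cortex. Dnajb5 read 4.10 and 4.10 in bulb, 3.89 and 4.08 in hippocampal and 4.06 and 4.51 in cortical RNA, so its mean of 0.21 comes from the hippocampus and cortex. At the other end, Dnajb4 read -1.28 and -1.17, -0.81 and -0.80, and -0.43 and -0.74, with its one difference past spot noise in the cortex, at -0.31. Dnaja2, Dnaja4 and Dnajb2 ranged from -0.10 to 0.17.

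Mitochondrial chaperones showed a mixed picture. Hspd1, the Hsp60 chaperonin, read 4.04 and 4.18 in bulb, 4.35 and 4.46 in hippocampal and 4.20 and 4.44 in cortical RNA. Hspe1, the lid of Hspd1, read 4.60 and 4.61, 4.89 and 4.90, and 4.69 and 4.96. Both were highest over saline in the cortex, by 0.24 and 0.26, and in the bulb and hippocampus Hspe1 hardly differed, with a value of -0.09 in the hippocampus under normexp background correction. Hspa9, the Hsp70 of the mitochondrial matrix, read 2.94 and 2.94, 3.08 and 3.04, and 3.11 and 3.02, and no difference passed spot noise. Dnaja3, its J-domain partner, was at 0.08, 0.15 and -0.23.

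The heat shock factors differed from each other. Hsf1, the main heat shock factor, read 1.45 and 1.48 in bulb, 1.41 and 1.57 in hippocampal and 1.36 and 1.57 in cortical RNA. It was higher with PAMAM by 0.03, 0.16 and 0.21, past spot noise in the cortex. Hsf2, a related factor of development and proteasome stress, read 0.51 and 0.14, 0.62 and 0.75, and 0.61 and 0.39, and had the lowest mean of the set, -0.15 ± 0.26 (SD over 3 regions). The large spread shows that the regions disagreed for Hsf2, with PAMAM lower in the bulb and cortex and higher in the hippocampus. Dnajc6, the auxilin that uncoats clathrin vesicles, read -0.04 and 0.05, 0.23 and 0.18, and 0.27 and -0.07, the last pair being -0.34. Dnajc5, the synaptic vesicle protein CSP alpha, differed by 0.03, 0.02 and 0.05 on its chosen probe, while its other probes ranged from -0.29 to 0.33. The TRiC subunits Tcp1, Cct2, Cct3 and Cct5, which fold actin and tubulin, lay between -0.04 and 0.16.

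Heat shock elements were looked for in the promoters of the set because Hsf1 acts through them. RefSeq promoter windows (GRCm38.p6; 250 bases before to 50 after a start, 300 in all) were at hand for 33 of the 40 genes. A pair of facing units, GAANNTTC or TTCNNGAA, each its own reverse complement so that both strands are read at once, occurred in 15 of the 33 genes (45.5%), against 17.0% of 27025 genes and 15.1% of all 32851 windows. A run of 3 alternating units with the same spacing, which contains such pairs, occurred in 5 genes (15.2%), against 0.662% of genes and 0.603% of windows. The 5 were Hsph1, Chordc1, Dnajb6, Hspd1 and Hspe1, of which Hspd1 and Hspe1 have overlapping windows on opposite strands. Among measured genes the mean difference had a median of 0.21 in the 5 with a 3-unit run (0.09 to 0.34). It was 0.07 in 26 with a window but no such run (-0.15 to 0.36). Split by the facing pair, the median was 0.12 in 14 measured genes with it (-0.07 to 0.36). In 17 without it the median was 0.06 (-0.15 to 0.28). Neither split was tested. A match describes letters in the reference strain and not a bound site. The stretches below carry these elements in capitals, 5′ to 3′ on the gene's strand. They are shown for Hspa1a, Hsph1, Chordc1 and Dnajb6, which are among the 8 genes with the highest mean differences, and for the shared mitochondrial stretch. Dnaja1, also among the 8, holds a facing pair that is not shown. Hspa1a has only a facing pair, 96 to 104 bases before its start. The stretch of Hspa1a is at chr17:34972223-34972290, Hsph1 at chr5:149636287-149636316, Chordc1 at chr9:18292259-18292288, Dnajb6 at chr5:29735822-29735894 and Hspe1 at chr1:55088029-55088106.
Hspa1a: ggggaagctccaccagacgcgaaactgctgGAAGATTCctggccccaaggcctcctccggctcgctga
Hsph1: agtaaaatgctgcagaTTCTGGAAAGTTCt
Chordc1: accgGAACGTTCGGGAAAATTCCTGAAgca
Dnajb6: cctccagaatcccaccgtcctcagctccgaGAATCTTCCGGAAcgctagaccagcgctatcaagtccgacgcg
Hspe1: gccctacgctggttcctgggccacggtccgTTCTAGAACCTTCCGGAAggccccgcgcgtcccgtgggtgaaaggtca
In Hsph1 the run lies after the annotated start and in Chordc1 it crosses the start. In Dnajb6 it lies 33 to 46 bases before the start of the window shown, and in Hspe1 71 to 89 bases before. Stip1, Dnajb1 and Dnajb5 were among the 8 highest genes with neither form of the element in their windows.

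The differences of the regions went together to a moderate degree across the set. Across the 38 genes Pearson's r between the differences was 0.37 for bulb and hippocampus, 0.34 for bulb and cortex and 0.43 for hippocampus and cortex, against 0.12, 0.04 and 0.08 over all 20979 genes. These are descriptions over genes, which are not independent replicates. Chaperone genes are mostly bright, and r over the brighter genes alone was not computed. The regions have arrays of their own, all on one slide.

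Other genes of the chaperone network, 49 listed by role with 48 measured on all arrays, had a smaller median difference, which was not tested against the set. Of these, 32 were higher in bulb, 24 in hippocampal and 28 in cortical RNA, 14 of 48 (29.2%) were higher in every region and 5 lower in every region, with a median mean difference of 0.03 and 0 called by limma. At the top stood Fkbp5, an Hsp90 immunophilin and a glucocorticoid-induced gene, which read 1.75 and 2.09 in bulb, 2.27 and 2.42 in hippocampal and 1.54 and 2.22 in cortical RNA. Next were Hspa12b, an endothelial Hsp70 relative (0.15, 0.18 and 0.43), and Dnajc21, a ribosome assembly factor (0.32, 0.27 and -0.09). The lowest were the small GTPase Dnajc27 (0.05, -0.40 and -0.47), the lens heat shock factor Hsf4 (-0.22, -0.13 and -0.29) and Hscb of iron-sulphur cluster assembly (-0.22, -0.12 and -0.23).

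**Figure D4:**
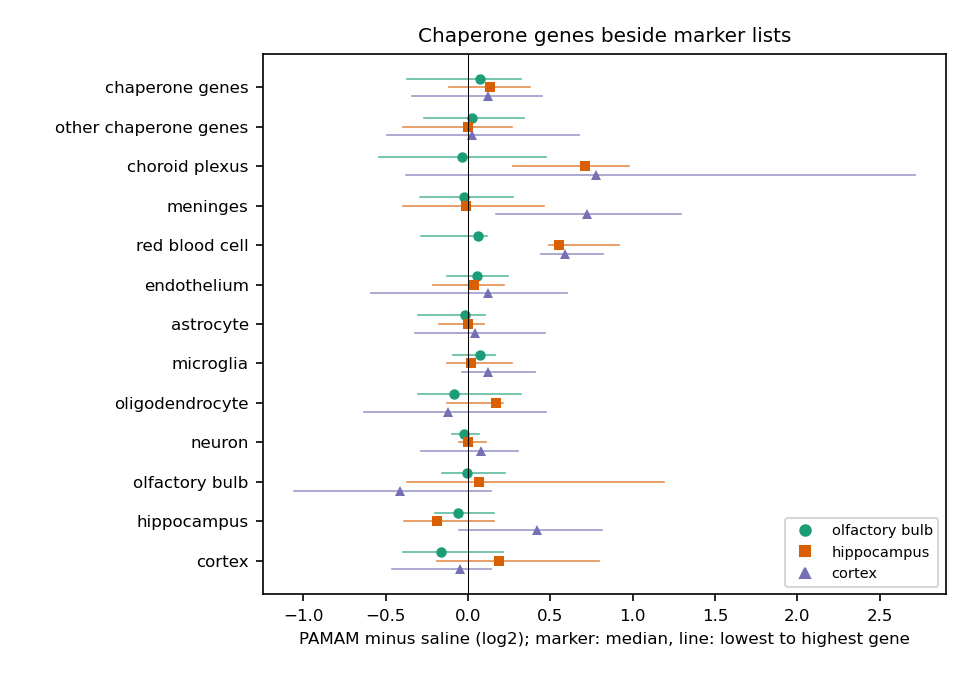
PAMAM minus saline (x axis, log2) by gene list and region, with the median as a marker and a line from the lowest to the highest gene. Choroid plexus and red blood cell markers are far right in the hippocampus and cortex and meninges markers in the cortex, while the chaperone medians lie between 0.07 and 0.13.

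Markers of tissue next to the dissected regions had larger median differences than the chaperone genes in the hippocampus and cortex. Choroid plexus markers were higher in 18 of 18 measured genes in the hippocampus (median 0.71), where their summed scaled signal was 182.5 with saline and 293.0 with PAMAM. In the cortex 12 of 13 were higher (0.78; summed signal 10.5 and 32.6), and Slc4a5, Kcne2, Cldn2, Kl and Calml4 were not above background. Meninges markers were higher in 12 of 12 in the cortex (0.72; summed signal 13.4 and 23.1) and in 4 of 12 in the hippocampus (summed signal 25.74 and 25.75). For red blood cells, 5 of 5 markers were higher in the hippocampus (0.55; summed signal 45.6 and 65.9) and 4 of 4 in the cortex (0.59; 46.3 and 71.9). In the bulb 6 of 13, 3 of 12 and 3 of 5 of these markers were higher, with medians of -0.03, -0.02 and 0.06, and the summed signals were 20.9 and 19.5, 44.0 and 41.7, and 66.4 and 69.1. The chaperone genes were higher in 29 of 38 there, where 47.2% of all measured genes were. Neuron and astrocyte markers had medians within 0.08 of 0 in every region, and endothelium and microglia markers reached 0.12 in the cortex. For oligodendrocytes, 7 of 9 markers were higher in the hippocampus (median 0.17) and 3 of 9 in the cortex (-0.12). On the cortical PAMAM array hippocampal markers were higher in 5 of 7 (median 0.42) and bulb markers in 1 of 8 (-0.42). On the hippocampal one, cortical markers were higher in 7 of 9 (0.19) and hippocampal markers in 2 of 9 (-0.19). The part of these tissues and markers in the chaperone differences was not tested in any region. In bulk tissue, fewer cells of a type and less RNA per cell cannot be told apart.

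Between regions 12 of 38 chaperone genes were called for bulb and hippocampus, 18 for bulb and cortex and 2 for hippocampus and cortex, against 44.3%, 47.1% and 11.1% of all genes. As shares of the set these counts lie near or under those of all genes, a difference that was not tested, and most of the calls were lower in the olfactory bulb. In the same limma fit, with 2 arrays per region, 0 of 38 were called higher and 12 lower in the bulb than in the hippocampus at an adjusted p under 0.05, where 18.8% and 25.5% of all genes were. Against the cortex, 3 were called higher in the bulb and 15 lower, where 18% and 29.1% of all genes were. Between hippocampus and cortex 2 were called higher in the hippocampus and 0 lower, where 4.72% and 6.39% of all genes were. The genes called lower in the bulb make up 31.6% and 39.5% of the set in the respective contrasts. The median of the 38 was -0.22 against the hippocampus and -0.21 against the cortex, with all genes at -0.06 and -0.08. The split depends on scaling: under quantile normalization 2 were called higher and 8 lower against the hippocampus, and 6 higher and 8 lower against the cortex, where the median of the 38 turned to 0.05. With no filter on dim probes only 4 and 6 of 39 genes were called in the bulb contrasts, where 13.4% and 14.2% of all genes were. With a variance trend 23 of 38 were called against the hippocampus, a share above the 49.05% of all genes. Leaving out the hippocampal arrays left 11 calls between bulb and cortex, where 39.7% of all genes were called. The 2 calls between hippocampus and cortex are lost when the bulb arrays are left out, with a lowest adjusted p of 0.0526.

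**Figure D5:**
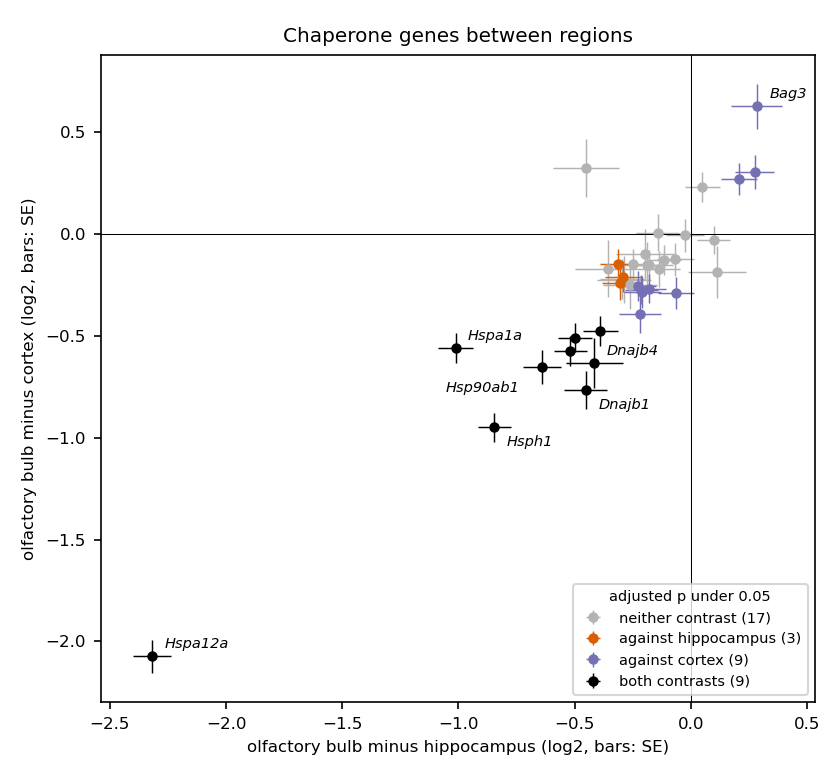
Olfactory bulb minus hippocampus (x axis, log2) against olfactory bulb minus cortex (y axis, log2) for the 38 chaperone genes, with standard errors as bars and colours for the limma calls at an adjusted p under 0.05. Hspa12a lies far to the lower left, at -2.32 and -2.07, and Bag3 stands at the top right.

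Hspa12a gave the largest regional difference of the set. It read -0.92 and -0.93 in bulb (saline and PAMAM), 1.45 and 1.33 in hippocampal and 1.12 and 1.17 in cortical RNA, so both bulb arrays lay far below the other 4. The bulb was lower than the hippocampus by 4.99-fold (-2.32 ± 0.08 SE, limma adjusted p = 0.00029) and lower than the cortex (-2.07 ± 0.08 SE, adjusted p = 0.00031). For Hspa1a all 3 contrasts passed, with the hippocampus above the cortex (0.45 ± 0.07, adjusted p = 0.028) and the cortex above the bulb, which was at -0.56 ± 0.07 against it (adjusted p = 0.005). Hsph1 was lower in the bulb than in the hippocampus (-0.85 ± 0.07, adjusted p = 0.0016) and the cortex (-0.95 ± 0.07, adjusted p = 0.0012). The hippocampus and cortex did not differ in Hsph1 by the test, at -0.10 ± 0.07 with an adjusted p of 0.43.

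Other chaperones of the stress-inducible and Hsp90 systems were lower in the bulb as well. Dnajb1 was lower in the bulb by -0.45 and -0.77, Hsp90ab1 by -0.64 and -0.65, and Ahsa1 by -0.50 and -0.51, against the hippocampus and cortex and with adjusted p from 0.0038 to 0.018. Under quantile normalization the call of Dnajb1 against the hippocampus and that of Ahsa1 against the cortex are lost, and with no filter on dim probes Ahsa1 loses both and Dnajb1 that against the hippocampus. Hsp90aa1 did not pass either test, with bulb differences of -0.14 and -0.17. The genes called higher in the bulb than in the cortex were the cochaperones Bag3 (0.63), St13 (0.31) and Fkbp4 (0.27), calls that are lost with no filter on dim probes. Hspa2 was the other gene called between hippocampus and cortex, higher in the hippocampus by 0.78 ± 0.14 (adjusted p = 0.038). Hsf1 passed neither test, with bulb differences of -0.03 ± 0.08 and 0.00 ± 0.08. The bulb was the lowest region for Hspa1a, Hsph1, Dnajb1, Hsp90ab1 and Ahsa1 on the saline arrays alone and on the PAMAM arrays alone.

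Several of these values rest on the probe chosen. Of the 38 genes, 11 have more than 1 probe on the array, giving 52 further pairs of probe and region, and 36 of the 52 had the sign of the chosen probe. Dnajc5, Dnaja2, Dnaja4, Dnajb2, Dnajb6, Hspa4, Hspa8 and Hspe1 had at least 1 probe whose difference had another sign or lay over 0.3 away in some region. Hsph1 has another probe with the same sign in every region, at 0.42, 0.40 and 0.29.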

How the data were processed

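Spot intensity, linear and background-corrected with Agilent Feature Extraction 10.7.3.1 on array design 028005, was deposited for each array, with probe positions in mm9, per the file headers. A log2 table by the authors was deposited too, with column medians of -0.09 (saline) and -0.06 (PAMAM) for the bulb, -0.05 and 0.03 for the hippocampus, and 0.04 and 0.03 for the cortex. Against the scaled log2 values used here minus a median per probe, r was from 0.9999 to 1 over 29553 probes, which settles log scale, centring by probe and direction. An offset per array remains: the median cortical difference over all genes is 0.04 in that table and 0.02 here. How the authors set it, how they treated repeated spots and any filter are unknown.

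Here log2 of the processed signal was taken, each array's 75th percentile (452.0 to 709.6) subtracted, outlier spots dropped and spots of a probe averaged. Genes were used in a region if well above background on both of its arrays, and in the fit if so on all 6. The fit used limma 3.58.1 in R 4.3.3 with region and treatment, 2 residual degrees of freedom and Benjamini-Hochberg adjustment over 20979 genes. It was run on simulated data with changes larger than any chaperone difference here, which does not cover changes of the size seen. Within regions 1 array per group allowed no test, so counts and medians stand beside those of all genes, at 0 and at 0.322 (log2). All 6 arrays lie on one slide, where the hippocampal pair lies in different rows. Alternatives were normexp (offset 50), quantile normalization, cyclic loess, the authors' table, a variance trend, 2 filters on dim genes, the median over probes and leaving out each region.

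Genes with values on every array were the 8 highest and 4 lowest by mean difference, the 3 with the lowest adjusted p in each region contrast and 11 fixed chaperones. The members and lists were chosen with earlier results of these data known. Promoter windows came from RefSeq (GRCm38.p6, strain C57BL/6J), and 7 genes had none: Hspa8, Hsp90ab1, Hspa9, Hsp90aa1, Hsf1, St13 and Dnajc5.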

Additional observations from a re-analysis of the deposited data

Results flagged for a closer look

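Hspa2 differed in opposite directions in the olfactory bulb and cortex. Its log2 difference between PAMAM and saline was -0.24 in the bulb and 0.29 in the cortex, a gap of 0.53, and -0.08 in the hippocampus. It drew attention because the single pair of arrays in one region differed one way and that of the other region the opposite way. Both differences lie outside the spot noise limits of 0.163 and 0.168. The difference between the regions was not tested, because each region has 1 array per treatment.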

How the results depend on the processing

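With 1 array per group there are no replicate numbers to pair by, and the fit pairs the arrays by region alone. Within-region values rest on single pools, and the test for PAMAM has 2 residual degrees of freedom. Chaperone genes called between olfactory bulb and hippocampus numbered 12 of 38, where 44.3% of all genes were called. With a variance trend they were 23 of 38 (49.05% of all genes), and among brighter genes 24 of 35 (60.6%). In these settings the share of the set was thus above that of all genes, a difference that was not tested. With no filter on dim probes 4 of 39 were called (13.4% of all genes). Between bulb and cortex the 18 calls became 6 with no filter and 11 without the hippocampus. Of all genes 14.2% and 39.7% were called there. Between hippocampus and cortex the 2 calls became 0 with no filter and 0 without the olfactory bulb. Of all genes 0% and 6.44% were called there. The count higher by at least 0.322 in the bulb, 0, became 2 under quantile normalization and 1 with the median of all probes. In the cortex the 6 became 4 under quantile normalization and under cyclic loess. The cortical median of 0.12 became 0.0679 under quantile normalization and 0.0650 under cyclic loess. The cause was not tested, apart from the fewer arrays and the other sets of genes that these alternatives use by construction. Genes higher in all 3 regions numbered 17 to 21 across the settings, and 23 to 26 were higher in both remaining regions when 1 region was left out. The count called for PAMAM was 0 under all 11 alternatives run. Of 258 other values of named genes, 243 moved by no more than 1 SD of spot noise for a difference (0.083 to 0.086) and 15 by more. The 243 include all 60 from the authors' table, which differs from the values here by little but a small offset per array, so they say little about stability. Of the 258, 3 changed sign, namely Dnajb5 in the bulb, Dnajb4 in the hippocampus and Hspe1 in the hippocampus. Another 93 values were fixed by construction (the filter on brightness, or a gene with 1 probe).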
